A study of Mus musculus with 18 samples.

Results

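The genes described here are the 9 receptors through which dendritic cells (DCs) read growth factors and lymphotoxin: Flt3, Csf1r, Csf2ra, Csf2rb, Csf2rb2, Csf3r, Kit, Ltbr and Il3ra. They were chosen by symbol, by matching the Ensembl identifiers of the count table to the mouse gene names, and make up 9 of the 54232 genes counted. All 9 passed the filter on low counts that left 17074 genes for testing. The data are 18 RNA-seq libraries of sorted DCs from C57BL/6J mice whose genotype is labelled CD11a KO, so that every library carries the deletion and no wild-type library was compared. CD11a is the Itgal product, which pairs with CD18 to make LFA-1, an adhesion receptor of leukocytes. The DCs were CD11b+, CD103+ or positive for both (double-positive, DP), and each subset came from the small intestinal lamina propria (LP) and from the intestinal lymph node (LN), with 3 libraries in each of the 6 groups. The age of the mice, any infection of these animals and the construction of the knockout are not given in the sources used here. No label says that the replicates came from separate animals, so the p-values measure only the spread between these samples, which may be technical.

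FLT3, CSF1R and KIT are receptor tyrosine kinases of the same class, and FLT3 signalling maintains conventional DCs while CSF1R signalling maintains macrophages. The receptors for GM-CSF (CSF2) and IL-3 pair a ligand-specific alpha chain (CSF2RA, IL3RA) with the common beta chain CSF2RB, and mice carry an additional beta chain, CSF2RB2, that serves IL-3. CSF3R is the G-CSF receptor of granulocytes, and LTBR, the lymphotoxin beta receptor, drives noncanonical NF-kB signalling and has a known part in keeping DC numbers up in lymphoid tissue.

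Reads assigned to genes numbered 23574292 to 46901985 per library. Itgal was read in every library, at 17.6 to 26.6 CPM (counts scaled to library size) in LP and 6.45 to 23.01 CPM in LN, and which exons the knockout removes is not given, so this does not check the genotype. The LP libraries held transcripts of the Y-linked gene Ddx3y at 50.04 to 74.4 CPM with Xist at 0.286 CPM or less. All LN libraries held Xist, at 15.4 to 89.1 CPM, and replicate 3 of LN CD11b+ and of LN DP also held Ddx3y, at 58.0 and 52.2 CPM. Tissue therefore cannot be told apart from the sex of the animals in these data. In LP, Itgam (CD11b) was at most 1.26 CPM in CD103+ libraries and at least 55.3 CPM in the others, and Itgae (CD103) was at 92.1 to 293 CPM in CD11b+ libraries and at least 714 CPM in the others. In LN, Itgam was at 13.8 to 25.7 CPM in CD11b+, 4.85 to 5.76 in DP and 0.166 to 0.886 in CD103+ libraries, without overlap. Itgae was at 5.57 to 6.65 CPM in LN CD11b+ libraries and at 27.0 to 49.1 CPM in the other LN libraries, so both markers ordered the LN libraries by label at lower levels than in LP. Of the 5 listed DC genes, Zbtb46 and Cd74 had group means of at least 173 and 14377 CPM. The list summed to 64480 to 68612 CPM in LP CD103+ and 18552 to 19075 in LN CD103+. Between these groups Itgax went from 393 to 86.5 CPM and H2-Ab1 from 27792 to 3582, while Dpp4 went from 541 to 651. Xcr1, a CD103+ DC gene, averaged 1400 CPM in LP CD103+ and 46.2, 97.6 and 75.5 in LN CD11b+, CD103+ and DP. Cd209a, a CD11b+ DC gene, averaged 2131 CPM in LP DP and 9.52 in LN DP. Sirpa, of the same list, averaged 696, 14.9 and 158 CPM in LN CD11b+, CD103+ and DP. In bulk samples of this kind, fewer cells of a type and less RNA per cell cannot be told apart.

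Set against gene length, the GM-CSF receptor alpha chain led in all LP groups. In CPM per kb of exon, Csf2ra had a level of 194 ± 21.4 (SD, n = 3) in LP CD11b+, 199 ± 26.1 in LP CD103+ and 263 ± 19.1 in LP DP. The receptor in second place by this scale was Csf1r in LP CD11b+ and Flt3 in LP CD103+ (101 ± 5.90 CPM per kb) and LP DP (64.2 ± 1.42). In LN the leading receptor differed by subset. It was Csf2ra in LN CD11b+ (86.2 ± 7.59 CPM per kb), Flt3 in LN CD103+ (167 ± 5.19) and Csf2rb in LN DP (231 ± 29.1). Il3ra stayed between 2.30 and 5.87 CPM per kb in all 6 groups, and Csf3r was the lowest of the 9 in both CD103+ groups. The plot of receptor levels by library shows the 9 genes side by side.

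**Figure D1:**
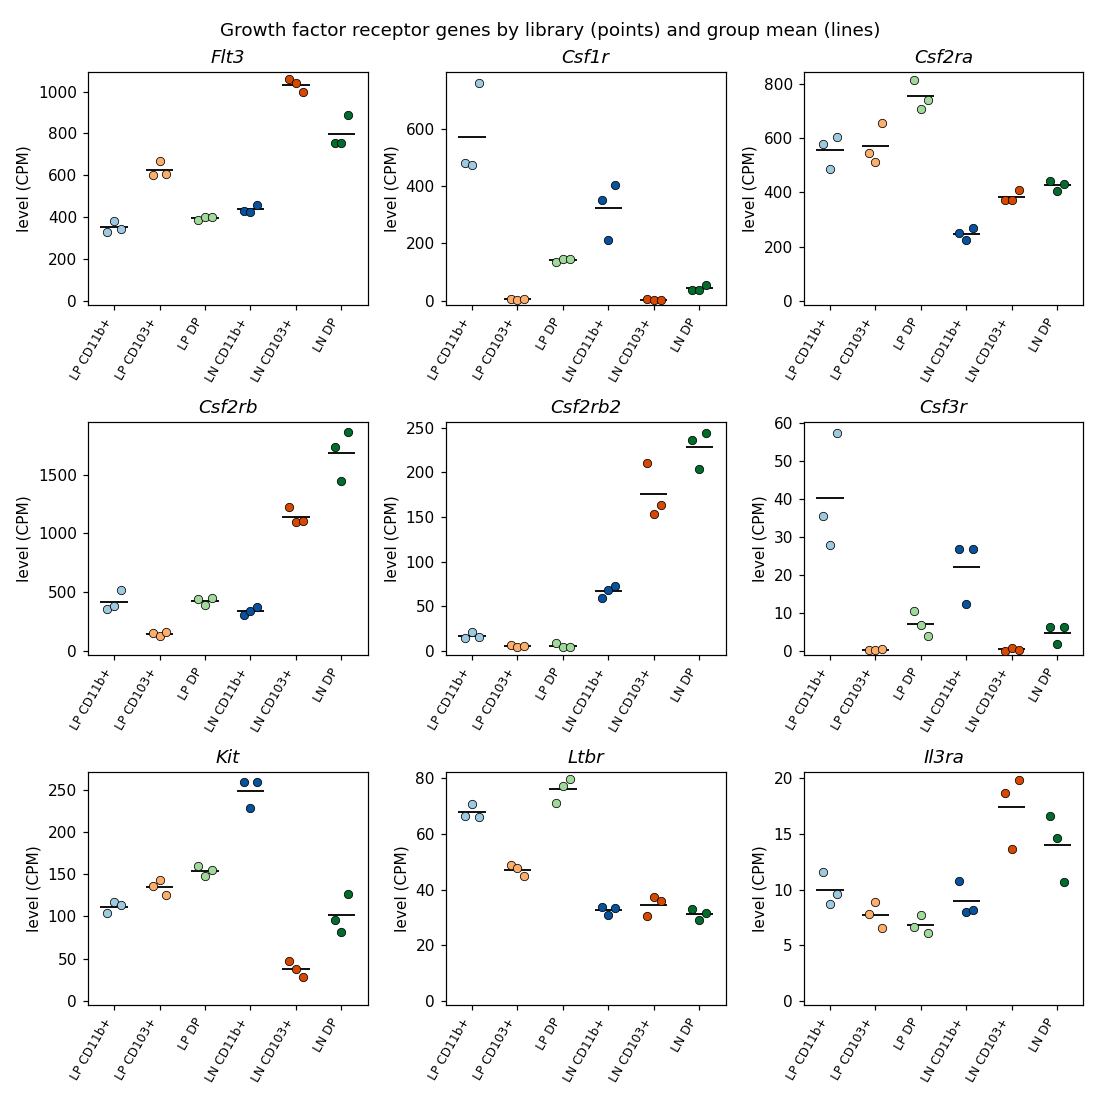
Level of each receptor gene in CPM (vertical axes, each from about 0 with its own range) in the 18 libraries, 3 points for each of the 6 groups and a line at the group mean. Flt3, Csf2rb and Csf2rb2 reach their highest values in LN CD103+ or LN DP libraries, Csf1r and Csf3r in CD11b+ libraries, and Ltbr and Csf2ra in LP libraries.

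Each subset was compared between the tissues, since the labels give gut and node libraries for each subset. No label pairs single libraries across the tissues. A gene was called changed at an edgeR quasi-likelihood adjusted p under 0.01 and a fold change over 2. In CD11b+ DCs 4 of the 9 receptors were called, Csf2rb2 and Kit higher in LN and Csf2ra and Ltbr lower, where 15.2% of all genes tested were called (10.3% higher and 4.93% lower). In CD103+ DCs 4 were called, Csf2rb, Csf2rb2 and Il3ra higher and Kit lower, against 35% of all genes (19.8% higher and 15.1% lower). In DP DCs 6 were called, Flt3, Csf2rb, Csf2rb2 and Il3ra higher and Csf1r and Ltbr lower, against 32.1% of all genes (18.6% higher and 13.6% lower). The share of receptors called in CD103+ DCs was thus close to that of all genes. The median log2 fold change of the receptors was -0.30, 0.69 and -0.59 in CD11b+, CD103+ and DP DCs, beside 0.03, 0.04 and 0.07 for all genes. The F test for a tissue effect that is unequal across the 3 subsets passed an adjusted p under 0.01 for 6 of the 9 receptors (Flt3, Csf2rb, Csf2rb2, Kit, Ltbr and Il3ra), against 31.5% of all genes.

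**Figure D2:**
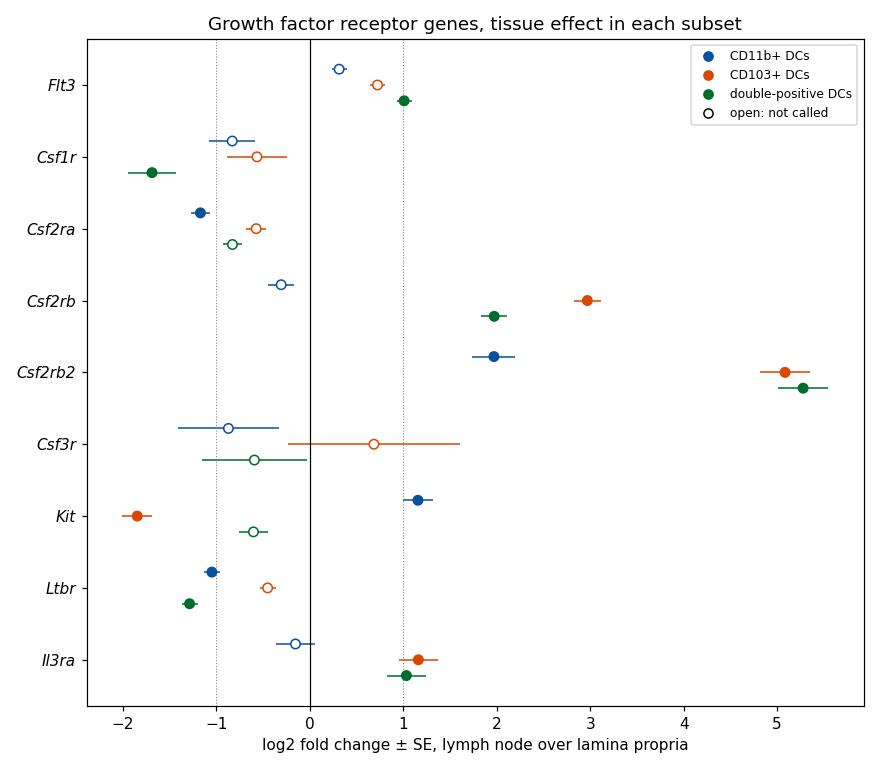
Log2 fold change of LN over LP with its standard error (horizontal axis) for the 9 receptor genes (vertical axis) in CD11b+, CD103+ and double-positive DCs; filled points passed an adjusted p under 0.01 and a fold change over 2, and dotted lines mark that fold. Csf2rb2 lies to the right in all 3 subsets, while Kit lies at 1.16 in CD11b+ DCs and at -1.84 in CD103+ DCs.

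The subsets were also compared with each other within each tissue. In LP, 4 receptors were called between CD103+ and CD11b+ DCs, all lower in CD103+ DCs (Csf1r, Csf3r, Csf2rb and Csf2rb2), where 15.7% of all genes were called. Between DP and CD11b+ DCs of LP 3 were called, all lower in DP (Csf1r, Csf3r and Csf2rb2), against 4.81% of all genes, and between DP and CD103+ DCs 3 were called, all higher in DP (Csf1r, Csf3r and Csf2rb), against 13.6%. In LN, 6 were called between CD103+ and CD11b+ DCs, with Flt3, Csf2rb and Csf2rb2 higher and Csf1r, Csf3r and Kit lower in CD103+ DCs, against 25.9% of all genes. With total counts in place of TMM scaling, 4 were called there, since the higher calls of Flt3 and Csf2rb2 were lost, and the share of higher calls among all genes called went from 39.6% to 19.5%. Between DP and CD11b+ DCs of LN 5 were called, Csf2rb and Csf2rb2 higher and Csf1r, Csf3r and Kit lower in DP, against 16.7% of all genes. Total counts moved the share of higher calls among all genes in that comparison from 41.3% to 19.3% and left 5 receptors called. Between DP and CD103+ DCs of LN 3 were called, all higher in DP (Csf1r, Csf3r and Kit), against 6.53% of all genes.

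Flt3 (ENSMUSG00000042817, GRCm38 chr5:147330741-147400489, minus strand), the receptor whose signalling maintains conventional DCs, was read at 329.7 CPM or more in every library. Its level was 329.7, 380.0 and 343 CPM in LP CD11b+, 599, 666 and 607 in LP CD103+ and 387, 401 and 402 in LP DP. The LN values were 427, 425 and 459 CPM in CD11b+, 1058, 1041 and 996 in CD103+ and 754, 754 and 888 in DP. The 6 groups ordered as LN CD103+, LN DP, LP CD103+, LN CD11b+, LP DP and LP CD11b+ from high to low, and no neighbours in that order overlapped. All LN libraries of a subset exceeded all LP libraries of the same subset. The log2 fold change of LN over LP was 0.32 (SE 0.08) in CD11b+, 0.73 (SE 0.08) in CD103+ and 1.01 (SE 0.08) in DP DCs, and only the last passed the fold threshold, by a small margin. Leaving out LP CD103+ replicate 3, LP DP replicate 1, LN DP replicate 3 or any of the 3 LN CD11b+ libraries brought it to between 0.91 and 1.00 and ended the call, as did total counts (0.84), no filter on low counts (0.99) and a fit of only the libraries compared (0.98). The call also ended without both LN libraries that held Xist and Ddx3y (0.93). The size of the tissue effect differed between subsets (adjusted p = 0.000334). In LN, CD103+ DCs had 2.36 times the Flt3 level of CD11b+ DCs (log2 1.24, SE 0.08, adjusted p = 1.6e-09), a difference of 0.81 and no call with total counts. The antisense gene Gm26597 overlaps Flt3, and whether the counting of these libraries separated the strands is not stated.

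Csf1r (ENSMUSG00000024621, on chromosome 18), the receptor for CSF1 and IL-34, separated the subsets by the widest range of the kinases. Its level was 481, 474 and 759.6 CPM in LP CD11b+, 5.27, 4.00 and 5.63 in LP CD103+ and 136, 146 and 145 in LP DP. Among LN libraries it was 352, 210.5 and 404 CPM in CD11b+, 4.85, 2.57 and 2.50 in CD103+ and 38.3, 38.9 and 55.2 in DP. In both tissues CD11b+ libraries were highest, DP libraries lay between and CD103+ libraries were lowest, without overlap, and across tissues only the LP and LN CD103+ groups overlapped. The mean over CD11b+ DCs was 116 times that of CD103+ DCs in LP (log2 for CD103+ against CD11b+ -6.86, SE 0.32, adjusted p = 7.73e-11) and 96.9 times in LN (log2 -6.60, SE 0.33, adjusted p = 7.49e-11). DP DCs stood 4.03-fold below CD11b+ DCs in LP (adjusted p = 4.88e-05) and 7.30-fold below in LN (adjusted p = 2.08e-07). Between tissues Csf1r fell by 1.69 on the log2 scale (SE 0.25, adjusted p = 2.21e-05) from LP to LN DP DCs. In CD11b+ DCs the difference was -0.83 (SE 0.24, adjusted p = 0.0127) and was not called. It was called without LN CD11b+ replicate 3 (-1.03, adjusted p = 0.00809). It was also called without both LN libraries that held Xist and Ddx3y, of which that replicate is 1 (-1.02, adjusted p = 0.00752). The tissue effects on Csf1r did not pass the F test (adjusted p = 0.0504). Of the 75-base windows along its exons, 799 of 5751 were shared with Hmgxb3, which lies across it on the opposite strand, so its counts are uncertain to that extent.

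Csf3r (ENSMUSG00000028859, chr4:126024550-126044440), the G-CSF receptor, followed the same order of subsets at a lower level. It was at 35.5, 27.8 and 57.5 CPM in LP CD11b+, 0.141, 0.172 and 0.408 in LP CD103+ and 10.6, 6.91 and 3.85 in LP DP. The LN values were 26.7, 12.5 and 27.0 CPM in CD11b+, 0, 0.759 and 0.351 in CD103+ and 6.21, 1.71 and 6.32 in DP. The CD103+ libraries were near 0 in both tissues, and the DP groups of LP and LN overlapped. The log2 difference of CD103+ from CD11b+ DCs was -7.44 in LP (SE 0.78, adjusted p = 9.4e-07) and -5.89 in LN (SE 0.74, adjusted p = 4e-06). The differences between DP and CD11b+ DCs were -2.50 in LP (SE 0.57, adjusted p = 0.007) and -2.22 in LN (SE 0.57, adjusted p = 0.00475). The call in LP was lost without LP CD11b+ replicate 1 or 3, any LP DP library, or LN CD11b+ replicate 1 or 3 (adjusted p up to 0.0403), and that in LN without LN CD11b+ replicate 1 or 3 or LN DP replicate 2 (up to 0.0213). Both calls were also lost without both LN libraries that held Xist and Ddx3y (adjusted p = 0.0127 in LP and 0.026 in LN). No tissue comparison of Csf3r passed (adjusted p = 0.225, 0.538 and 0.381 in CD11b+, CD103+ and DP DCs), and the F test gave 0.473. Over the 18 libraries log2 CPM of Csf3r and Csf1r had a Pearson r of 0.942, a description of 18 points that share 6 groups.

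By group mean, the summed level of macrophage transcripts fell in the same order as Csf1r, but not in proportion. LP CD103+ and LN DP had Csf1r means of 4.97 and 44.2 CPM with macrophage sums of 832.6 to 958 and 1111 to 1246 CPM. The order of Csf3r was the same except that LN CD103+ lay above LP CD103+, both near 0. The list of 10 macrophage and monocyte genes summed to 7065 to 16807 CPM in LP CD11b+, 832.6 to 958 in LP CD103+ and 2488 to 3405 in LP DP. In LN the sum was 2675 to 4314 CPM in CD11b+, 161 to 164 in CD103+ and 1111 to 1246 in DP. Lyz2 made up most of each sum. Members above 10 CPM numbered 8 of 10 in both CD11b+ groups, 6 in both DP groups, 3 in LP CD103+ and 2 in LN CD103+. Fcgr1, Mertk, C1qa, C1qb, C1qc, Cd14, Ccr2 and Lyz2 had their highest group mean in LP CD11b+, and Fcgr1 (CD64) was at 0 in LN CD103+. The other members did not follow that order. Adgre1 averaged 196 CPM in LP DP and 169 in LN CD11b+ against 95.4 in LP CD11b+, and Ly6c2 averaged 57.6 CPM in LN CD11b+ and 34.0 in LN CD103+ against 14.0 in LP CD11b+. Within LN DP, replicate 3 had the lowest macrophage sum (1111 CPM) and the highest Csf1r and Csf3r values (55.2 and 6.32 CPM). Within LN CD11b+, replicate 2 had the lowest macrophage sum and the lowest Csf1r and Csf3r values. Within LP CD11b+, replicate 3 had the highest Csf1r and Csf3r values and the highest macrophage sum (16807 CPM, against 9817 and 7065). That library also had 97.0 CPM over the 6 neutrophil genes, against 15.3 and 14.0 in the other LP CD11b+ libraries. Retnlg (27.8 CPM), Cxcr2 (9.63) and Mmp8 (3.07) made up most of that group's mean, with S100a8, S100a9 and Ly6g under 1 CPM. The part of these cells in the Csf1r and Csf3r values was not tested.

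**Figure D3:**
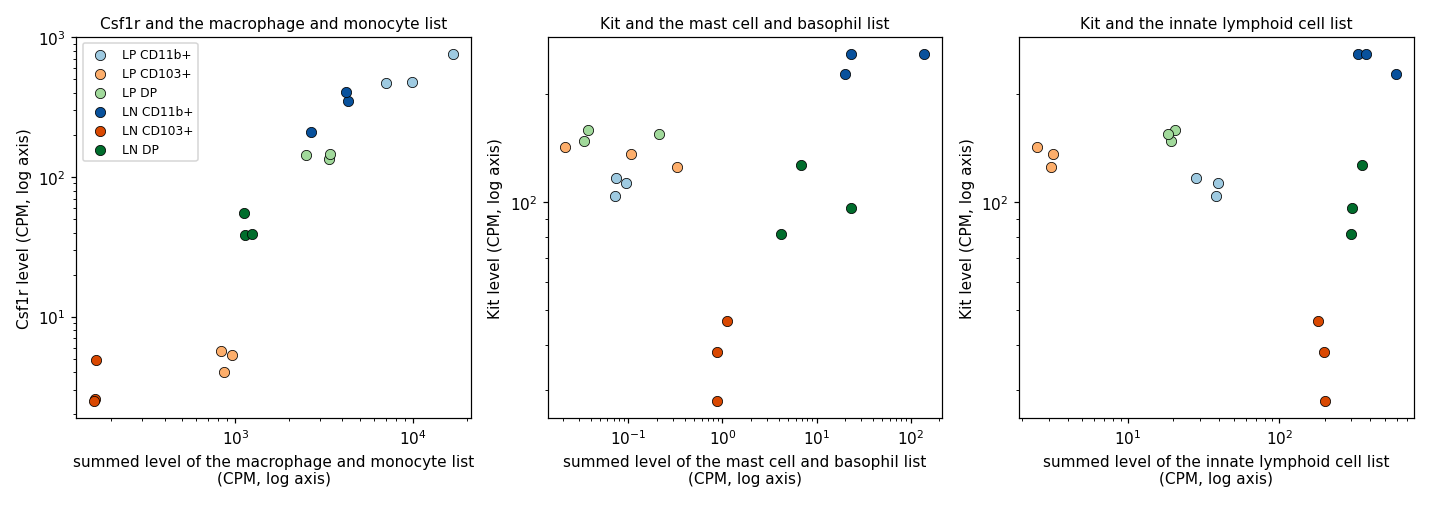
Receptor level against the summed level of a marker list in the 18 libraries, both in CPM on log axes: Csf1r and the macrophage and monocyte list (left), Kit and the mast cell and basophil list (middle), Kit and the innate lymphoid cell list (right), coloured by group. The group means of Csf1r fall in the same order as those of the macrophage list, and the LN CD11b+ libraries have Kit at 228 to 259 CPM and mast cell sums of 20.2 to 140.3 CPM.

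The chains of the GM-CSF and IL-3 receptors moved apart between the tissues. Csf2ra (ENSMUSG00000059326, chr19:61223957-61228429, minus strand), the alpha chain that binds GM-CSF, was at 578, 486 and 603 CPM in LP CD11b+, 545, 514 and 656 in LP CD103+ and 816, 709 and 743 in LP DP. LN libraries had 248, 225 and 269 CPM in CD11b+, 371, 373 and 409 in CD103+ and 441, 406 and 433 in DP. Every LP library exceeded every LN library. The log2 fold change of LN over LP was -1.17 in CD11b+ DCs (SE 0.11, adjusted p = 2.83e-07), and -0.57 (SE 0.10) in CD103+ and -0.83 (SE 0.10) in DP DCs, which passed on adjusted p (0.000144 and 3.38e-06) but not on fold. The order of groups was LP DP, LP CD103+, LP CD11b+, LN DP, LN CD103+ and LN CD11b+, with overlap between LP CD103+ and LP CD11b+ and between LN DP and LN CD103+. The F test of Csf2ra lay at the threshold (adjusted p = 0.0103). It passed without LP CD11b+ replicate 2 (0.00381) or LP CD103+ replicate 3 (0.00337), and with DESeq2's size factors (0.00448) or test (0.000211). It also passed with a filter of at least 100 counts in 3 libraries (0.00929) and with a replicate block (0.00256).

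Csf2rb (ENSMUSG00000071713, chr15:78325752-78353847), the common beta chain that carries the signal of GM-CSF, IL-3 and IL-5, was at 357, 382 and 517 CPM in LP CD11b+, 154, 125 and 158 in LP CD103+ and 439, 394 and 451 in LP DP. LN libraries had 304, 340.2 and 372 CPM in CD11b+, 1221, 1095 and 1106 in CD103+ and 1732, 1447 and 1861 in DP. CD103+ DCs thus had the lowest level of the 3 subsets in LP and more than CD11b+ DCs in LN. LN exceeded LP 7.83-fold in CD103+ DCs (log2 2.97, SE 0.15, adjusted p = 2.86e-11) and 3.93-fold in DP DCs (log2 1.97, SE 0.14, adjusted p = 3.66e-09). In CD11b+ DCs the values of the tissues overlapped (log2 -0.30, SE 0.14, adjusted p = 0.0885). The tissue effects differed between subsets (adjusted p = 7.34e-09). In LP the difference between CD103+ and CD11b+ DCs was -1.52 (SE 0.14, adjusted p = 1.84e-07), and in LN it was 1.75 (SE 0.14, adjusted p = 1.89e-08). LP DP and LP CD11b+ overlapped, as did LP CD11b+ and LN CD11b+.

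Csf2rb2 (ENSMUSG00000071714, chr15:78282507-78305721, minus strand), the beta chain specific to IL-3, had the largest tissue difference of the 9 receptors. It was at 14.5, 21.1 and 15.5 CPM in LP CD11b+, 6.72, 3.79 and 5.26 in LP CD103+ and 8.75, 4.54 and 4.39 in LP DP. Among LN libraries it was at 59.3, 67.7 and 73.2 CPM in CD11b+, 211, 153 and 164 in CD103+ and 236, 203 and 244 in DP. All LN libraries lay above all LP libraries. The log2 fold change of LN over LP was 1.97 (SE 0.23, adjusted p = 4.65e-06) in CD11b+, 5.08 (SE 0.27, adjusted p = 6.21e-11) in CD103+ and 5.28 (SE 0.27, adjusted p = 6e-11) in DP DCs, and the effects differed between subsets (adjusted p = 6.37e-07). In LP, CD11b+ DCs were highest of the subsets, 3.28-fold above CD103+ (adjusted p = 3.25e-05) and 2.90-fold above DP DCs (adjusted p = 0.000428, or 0.0144 in a fit of only the libraries compared). In LN they were lowest, 2.64-fold below CD103+ (adjusted p = 4.75e-05, with no call by total counts, where the log2 difference was 0.97) and 3.42-fold below DP DCs (adjusted p = 7.1e-06). CD103+ and DP DCs overlapped in each tissue. Csf2rb and Csf2rb2 are neighbours with stretches in common. Of the 75-base windows along their exons 518 were shared, 7.15% of 7243 in Csf2rb and 10.6% of 4872 in Csf2rb2. Each count is uncertain by the reads that fall there.

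Within a library the ratio of levels per kb gives the balance of the chains without library scaling. Csf2rb over Csf2ra was 0.297 ± 0.0486 (SD, n = 3) in LP CD11b+, 0.101 ± 0.00896 in LP CD103+ and 0.224 ± 0.0141 in LP DP. In LN it was 0.542 ± 0.0574 in CD11b+, 1.17 ± 0.117 in CD103+ and 1.55 ± 0.144 in DP. The highest ratio of any LP library was 0.338 and the lowest of any LN library was 0.482. Csf2rb2 over Csf2rb was between 0.0150 and 0.0848 in the LP libraries and between 0.202 and 0.305 in the LN libraries. The ratios are given as a description and were not tested.

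**Figure D4:**
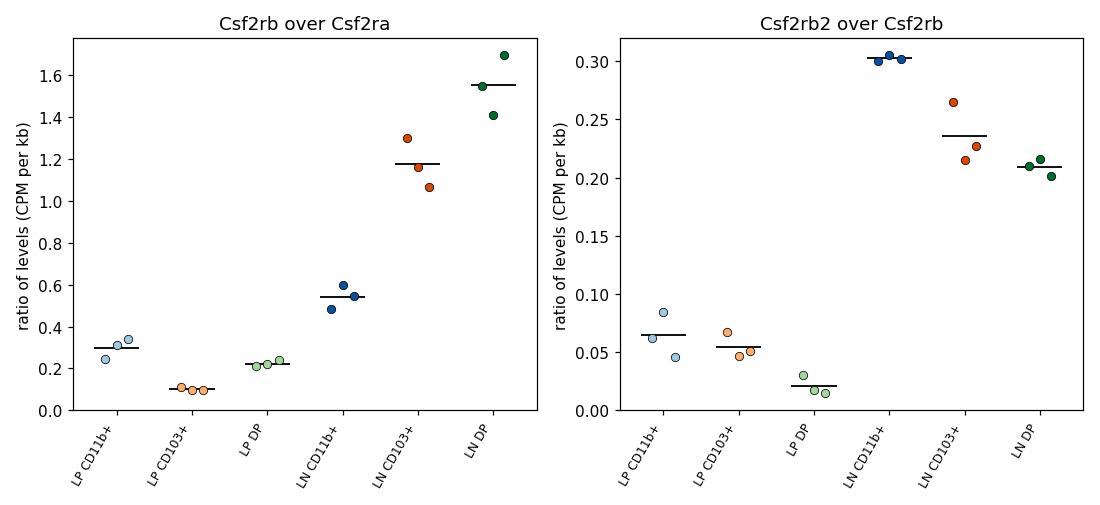
Ratio of levels in CPM per kb (vertical axes from 0) of Csf2rb over Csf2ra (left) and of Csf2rb2 over Csf2rb (right) in each library of the 6 groups, with lines at the group means. In both plots every LN library lies above every LP library, and Csf2rb over Csf2ra exceeds 1 in the LN CD103+ and LN DP libraries.

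The 250 bases before the RefSeq start (GRCm38.p6) are shown for Csf2rb2 and Csf2ra, since these chains of the same receptor family moved in opposite directions between the tissues. The windows are chr15:78305722-78305971 and chr19:61228419-61228668, both on the minus strand, and 7 of the 9 receptors had a window in the table used. Capitals mark matches on either strand to GAGGAAG, a core bound by ETS factors of the PU.1 type, or to TTCNNNGAA, the palindrome bound by STAT5.
Csf2rb2: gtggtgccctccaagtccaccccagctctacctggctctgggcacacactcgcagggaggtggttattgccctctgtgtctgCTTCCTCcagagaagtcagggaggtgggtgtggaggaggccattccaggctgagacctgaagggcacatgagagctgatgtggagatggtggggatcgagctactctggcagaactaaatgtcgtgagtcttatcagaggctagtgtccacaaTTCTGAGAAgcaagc
Csf2ra: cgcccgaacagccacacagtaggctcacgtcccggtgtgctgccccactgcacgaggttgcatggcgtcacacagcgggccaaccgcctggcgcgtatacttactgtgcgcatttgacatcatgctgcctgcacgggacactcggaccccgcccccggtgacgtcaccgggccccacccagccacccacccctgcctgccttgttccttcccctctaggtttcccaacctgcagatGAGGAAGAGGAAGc
Csf2rb2 held TTCTGAGAA at bases -15 to -7 before the start and GAGGAAG on the other strand, which reads CTTCCTC here, at -168 to -162. Csf2ra held GAGGAAG at -14 to -8 and again at -8 to -2, so that the matches share a base. Among the other windows, Csf3r and Kit each held 1 GAGGAAG and Flt3, Ltbr and Il3ra held neither motif. Of 27025 genes, 8.13% had TTCNNNGAA and 12.0% had GAGGAAG in such a window, and the kappaB consensus, found in 4.46% of genes, matched none of the 7 receptors. A match is a stretch of letters and no measurement of binding.

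Il3ra (ENSMUSG00000068758, chr14:14346275-14356011), the alpha chain that binds IL-3, was the scarcest of these chains in LN. It was at 11.6, 8.75 and 9.57 CPM in LP CD11b+, 7.85, 8.90 and 6.53 in LP CD103+ and 6.63, 7.69 and 6.14 in LP DP. LN libraries had 10.8, 7.95 and 8.13 CPM in CD11b+, 18.7, 13.7 and 19.9 in CD103+ and 16.6, 14.7 and 10.6 in DP. LN lay above LP in CD103+ and DP DCs, and the CD11b+ libraries of both tissues overlapped. All neighbours in the order of the 6 groups overlapped. The log2 fold change of LN over LP was 1.16 in CD103+ (SE 0.21, adjusted p = 0.000116), 1.03 in DP (SE 0.21, adjusted p = 0.000387) and -0.15 in CD11b+ DCs (SE 0.20, adjusted p = 0.599), and the F test gave an adjusted p of 0.00231. With total counts the first 2 were 0.94 and 0.86 and were not called, and the F test gave 0.0201. The DP call was also lost without LP DP replicate 3 (0.96) or LN DP replicate 1 (0.88) or 2 (0.99), and the F test passed no longer without LN CD11b+ replicate 2 (0.0122) or 3 (0.0125). Between CD103+ and CD11b+ DCs of LN the difference was 0.96, not called, and it was called without LN CD11b+ replicate 1 (1.07) or LN CD103+ replicate 2 (1.09), and at 1.01 with DESeq2's size factors (adjusted p = 0.000541) and with the DESeq2 test (adjusted p = 5.69e-06). The antisense gene Gm48860 overlaps Il3ra.

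Kit (ENSMUSG00000005672, chr5:75574916-75656722), the stem cell factor receptor of progenitors, mast cells and some innate lymphoid cells, changed in opposite directions in 2 of the subsets. It was at 104, 117 and 113 CPM in LP CD11b+, 136, 143 and 125 in LP CD103+ and 159, 148 and 155 in LP DP. The LN values were 259, 228 and 259 CPM in CD11b+, 46.7, 38.1 and 27.9 in CD103+ and 96.2, 81.6 and 127 in DP. LN CD11b+ was the highest group and LN CD103+ the lowest, each without overlap, and LP CD11b+ and LN DP overlapped. The log2 fold change of LN over LP was 1.16 in CD11b+ (SE 0.16, adjusted p = 2.12e-05) and -1.84 in CD103+ DCs (SE 0.16, adjusted p = 3.55e-08). In DP DCs it was -0.60 (SE 0.16, adjusted p = 0.00311), under the fold threshold. The tissue effects differed between subsets (adjusted p = 8.84e-08). The LP groups lay within 1.38-fold of each other and no LP comparison of subsets passed. In LN, CD103+ DCs were 6.61-fold below CD11b+ DCs (adjusted p = 7.55e-10) and 2.70-fold below DP DCs (adjusted p = 5.6e-06), and DP DCs were 2.45-fold below CD11b+ DCs (adjusted p = 4.81e-06).

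Transcripts of other KIT-bearing cells were present in the LN CD11b+ libraries. The 8 mast cell and basophil genes summed to 140.3, 20.2 and 23.4 CPM in LN CD11b+ replicates 1, 2 and 3, beside Kit at 259, 228 and 259 CPM. The sum was 4.22 to 23.4 CPM in LN DP, 0.877 to 1.12 in LN CD103+ and at most 0.326 in LP, where Mcpt1, Mcpt2, Mcpt8 and Ms4a2 were at 0. The 6 innate lymphoid cell genes summed to 329 to 587 CPM in LN CD11b+, 299.9 to 351 in LN DP, 181 to 200.3 in LN CD103+ and at most 39.2 in LP. Il7r was the largest in each LN group, and Gata3, Il23r and Ncr1 had their highest group mean in LN CD11b+. Il1rl1 went the other way, at 11.6 CPM in LP CD11b+ and 4.79 in LP DP against 2.09, 0.252 and 0.598 in LN CD11b+, CD103+ and DP. Members above 10 CPM numbered 5 of 6 in LN CD11b+, 3 in LN DP and 1 in LN CD103+. The part of innate lymphoid cells and mast cells in the Kit values was not tested.

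Ltbr (ENSMUSG00000030339, chr6:125306571-125313885, minus strand), the lymphotoxin beta receptor, was lower in LN. It was at 66.6, 70.8 and 66.0 CPM in LP CD11b+, 49.0, 47.6 and 44.8 in LP CD103+ and 71.3, 77.4 and 79.7 in LP DP. Among LN libraries it was at 33.9, 31.1 and 33.6 CPM in CD11b+, 30.4, 37.2 and 36.0 in CD103+ and 33.0, 29.1 and 31.7 in DP. The LP groups did not overlap with each other or with LN, and the 3 LN groups all overlapped. The log2 fold change of LN over LP was -1.05 in CD11b+ (SE 0.08, adjusted p = 9.55e-08) and -1.28 in DP DCs (SE 0.09, adjusted p = 1.67e-09), both called, and -0.45 in CD103+ DCs (SE 0.08, adjusted p = 0.000206), under the fold threshold. The effects differed between subsets (adjusted p = 7.9e-05). With total counts the value in CD11b+ DCs was -0.91 and not called.

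The 8 listed genes of the noncanonical NF-kB pathway, through which LTBR and related receptors act, were mostly higher in LN. In CD11b+ DCs 5 of 8 rose and none fell, in CD103+ DCs 7 rose and 1 fell, and in DP DCs 7 rose and none fell. Among all genes 10.3%, 19.8% and 18.6% rose in these comparisons. Their median log2 fold change was 1.08, 2.69 and 2.43, beside 0.03, 0.04 and 0.07 for all genes. Relb, the transcription factor subunit that the pathway releases, rose from 181 ± 4.24 to 887 ± 136 CPM in CD11b+ (log2 2.29), from 82.1 ± 10.8 to 2053 ± 24.4 in CD103+ (log2 4.64) and from 137 ± 22.6 to 2376 ± 138 in DP DCs (log2 4.12). Its partner Nfkb2 rose by 2.93 in CD103+ and 2.32 in DP DCs on the log2 scale, and in CD11b+ DCs had a log2 fold change of 0.97, under the threshold. The ubiquitin ligases and adaptors that hold the pathway in check in resting cells rose as well. Birc2 rose by 2.02, 3.60 and 3.47, Birc3 by 1.10, 2.69 and 2.53, Traf2 by 1.64, 2.46 and 2.62 and Traf3 by 1.06, 2.68 and 2.29 in CD11b+, CD103+ and DP DCs. Map3k14, the kinase NIK, rose by 2.50 in CD103+ and 2.20 in DP DCs. Chuk, the kinase IKK-alpha, fell by 1.29 in CD103+ DCs. All 8 passed the F test of a difference between subsets, which 31.5% of all genes passed. Between subsets of LN 5 of the 8 were called in CD103+ against CD11b+ DCs (Birc2, Birc3, Map3k14, Nfkb2 and Relb, all higher, by 1.07 to 1.39), and none of these calls held with total counts, where the values were 0.64 to 0.96. The same 5 genes were called in DP against CD11b+ DCs, all higher, by 1.04 to 1.73, and Nfkb2 was lost there with total counts (0.67). Without replicate 3 of LN CD11b+ and of LN DP, 4 of the 8 rose in CD11b+ DCs, since Birc3 came in under the fold threshold.

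**Figure D5:**
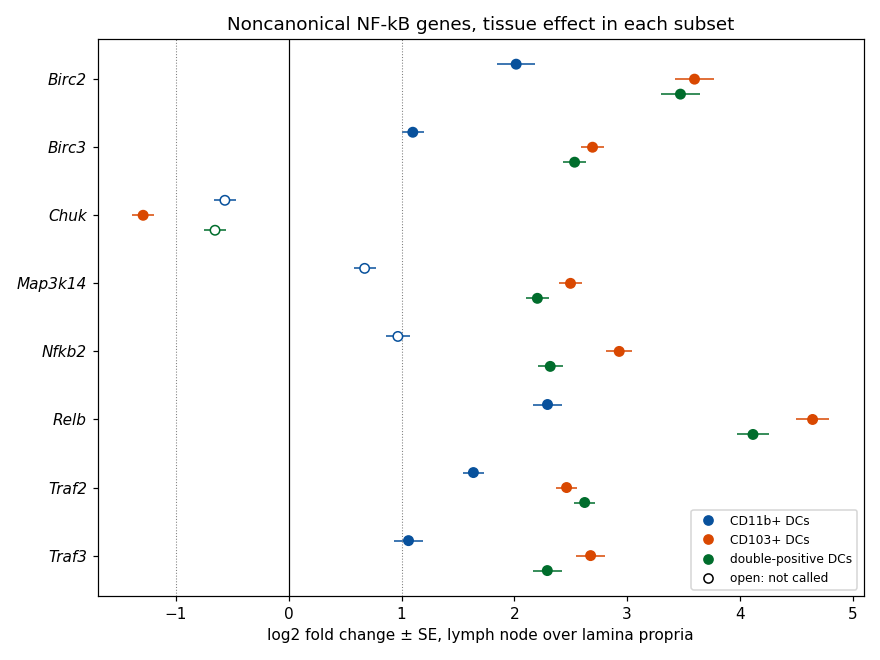
Log2 fold change of LN over LP with its standard error (horizontal axis) for the 8 listed genes of noncanonical NF-kB signalling (vertical axis) in the 3 DC subsets; filled points were called. Relb lies furthest to the right in each subset, and Chuk lies to the left of 0.

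Of the 11 ligand genes listed, 8 could be tested. Il3 had no count in any library and Csf3 and Il5 had at most 8 and 10 counts. In CD11b+ DCs 5 ligand genes rose in LN and 1 fell, in CD103+ DCs 4 rose, and in DP DCs 5 rose. Of all genes 10.3%, 19.8% and 18.6% rose in the same comparisons, with medians of 0.03, 0.04 and 0.07. The median log2 fold change of the 8 was 2.38 in CD11b+ and 2.84 in CD103+ DCs, and in DP DCs 2.98, or 2.39 with Csf2, which had no count in LP DP, set to the limit that 3 counts per library allow. Csf1, the ligand of CSF1R, rose from 0.778 ± 0.587 to 50.2 ± 11.7 CPM in CD103+ DCs (log2 5.92, adjusted p = 3.48e-09), and by 2.22 in CD11b+ and 3.47 in DP DCs. LN CD103+ DCs, where Csf1r was near 3 CPM, thus had the highest level of Csf1, which was called against LN CD11b+ and against LN DP DCs (1.98 higher on the log2 scale). Csf2, which encodes GM-CSF, was at 3.68 ± 2.53 CPM in LN CD11b+ and under 0.6 CPM on average elsewhere. It rose by 5.64 in CD11b+ DCs (adjusted p = 0.000124), and in DP DCs LN was at least 4.92-fold higher. Flt3l was at 1.92 to 9.52 CPM on average and was called in no tissue comparison. Kitl fell by 4.46 in CD11b+ DCs (from 3.12 ± 0.801 to 0.138 ± 0.0419 CPM, adjusted p = 0.00257), a call lost without replicate 3 of LN CD11b+ and LN DP together (adjusted p = 0.0146).

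The ligands of LTBR rose in all 3 subsets. Ltb rose from 100.2 ± 26.2 to 585.6 ± 15.5 CPM in CD11b+ (log2 2.55), from 3.45 ± 0.566 to 101 ± 17.6 in CD103+ (log2 4.85) and from 28.4 ± 11.8 to 159 ± 8.44 in DP DCs (log2 2.49). Lta rose by 6.07, 3.88 and 4.40 and Tnfsf14, the ligand LIGHT, by 4.82, 4.90 and 4.16 in CD11b+, CD103+ and DP DCs. Lymphocytes also make lymphotoxin, and T cell transcripts were likewise higher in LN than in LP. The 9 T cell genes summed to 383 to 773 CPM in the LN libraries, where all 9 were above 10 CPM in each group, and to 15.5 to 229 CPM in LP, where at most 1 was. Cd3e averaged 34.2, 59.7 and 42.2 CPM in LN CD11b+, CD103+ and DP and at most 1.42 CPM in LP, while Cd8a averaged 196 CPM in LP CD103+. Within LN, Cd3e averaged lowest in CD11b+, where Ltb and Lta (61.7 CPM) averaged highest, while Cd4 was highest there (224 CPM). In LP the T cell sum was highest in CD103+ (177 to 229 CPM), where Ltb was lowest, but that sum was mostly Cd8a. Every other listed T cell gene averaged at most 1.97 CPM in LP CD103+. Each of these was higher in LP CD11b+, the LP group with the highest Ltb. The 6 B cell and plasma cell genes summed to 1161 to 1295 CPM in LN CD11b+ and 1370 to 1791 in LP CD11b+. Jchain made up most of these sums, which were at most 526 CPM in the other groups. The part of these cells in the ligand levels was not tested.

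Among the related receptors, Il5ra, Pdgfra and Pdgfrb stayed under 3 CPM on average in every group. The 1 tissue call was Il5ra in CD103+ DCs, listed at 0 in LP and at 0.241 ± 0.209 CPM in LN, and it was lost with total counts (adjusted p = 0.0113).

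Of the 20 listed genes that signal next to the kinase and beta chain receptors, 3 rose in LN in CD11b+ DCs and none fell, while 7 rose and 4 fell in CD103+ and in DP DCs. The share called in CD11b+ DCs was close to the 15.2% of all genes called there, and in CD103+ and DP DCs 11 of 20 were called beside 35% and 32.1% of all genes. The median log2 fold change was 0.04, 0.26 and 0.18, beside 0.03, 0.04 and 0.07 for all genes. Socs2, a STAT5 target that limits cytokine signalling, had the largest rise. It went from 17.7 ± 6.89 to 208 ± 50.1 CPM in CD11b+ (log2 3.55), from 7.66 ± 1.64 to 767 ± 82.6 in CD103+ (log2 6.66) and from 29.9 ± 1.02 to 884.5 ± 8.24 in DP DCs (log2 4.89). Cblb, a ubiquitin ligase that restrains receptor signalling, rose by 1.95, 3.80 and 3.93. Cish, another STAT5 target, rose by 2.58, 1.87 and 1.16, and the last call was lost with total counts (0.99). In CD103+ DCs Inpp5d, the phosphatase SHIP-1, fell by 2.34 on the log2 scale, and in DP DCs by 1.38. Jak2, the kinase bound to the common beta chain, was called in DP DCs at 1.61 and in CD103+ DCs at 1.14, the latter lost with total counts (0.92). Pik3r1 rose by 1.87 in CD103+ and 1.39 in DP DCs, and Stat3 by 1.62 in DP DCs. In CD11b+ DCs the genes called were Cblb, Cish and Socs2.

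Some genes outside the lists followed the receptors closely over the libraries. Likeness was measured as the Pearson r of log2 CPM over the 18 libraries among 9901 genes, and the libraries share 6 groups, so these values describe the pattern over groups and carry no p. Flt3 was most like Galnt7 (r = 0.989), Tbc1d14 (0.982) and Rab8b (0.981). Among the genes most like Csf1r were Fgr (0.974) and Paox (0.971), and among those most like Csf3r were Sirpb1c (0.946) and Apoe (0.945). Csf2rb was most like Ikbkb (0.980), Ndrg4 (0.968) and Arf4 (0.968), and Csf2rb2 was most like Traf3 (0.982), Scn4b (0.981) and Papss2 (0.980). Csf2ra was most like Spint1 (0.980), Sumf1 (0.948) and Ywhah (0.928). Kit was most like Hap1 (0.942), Prkcb (0.941) and Tmem64 (0.938), Ltbr was most like Slc39a11 (0.968), Dhcr7 (0.963) and Plet1 (0.959), and Il3ra was most like Zfpl1 (0.917), Hax1 (0.907) and Tpd52l2 (0.905). Traf3 is thus both a listed noncanonical NF-kB gene and the closest in pattern to Csf2rb2.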

How the data were processed

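RNA from the 18 sorted DC samples was made into libraries with the SMART-seq v4 kit and sequenced in 75-base reads, per the labels. The authors deposited raw read counts per gene, without normalization, for 54232 genes by Ensembl identifier. The submitters' processing notes name FastQC 0.11.7, STAR 2.6 and GRCm38, while the counting of these libraries is not stated in the sources. For its own DC libraries the study counted unique alignments without regard to strand. Such counting would drop reads from stretches that genes share, and would not use strand to tell overlapping genes apart.

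Symbols (for 54079 genes) and positions came from GENCODE vM21 (GRCm38) and promoter bases from RefSeq. Counts were tested with edgeR 4.0.16 in R 4.3.3: TMM scaling, filterByExpr, 1 quasi-likelihood fit over the 6 groups, Benjamini-Hochberg adjustment over 17074 genes, called at an adjusted p under 0.01 and a fold change over 2, the study's thresholds. The difference of tissue effects between subsets was an F test at an adjusted p under 0.01. Levels are CPM with TMM library sizes, divided by exon length for CPM per kb. No 2 replicates agreed within read-counting noise (chi-square per gene 14.9 to 64.9), so none was taken as 1 library deposited again, which does not show that they are separate animals. The fit was also run on simulated counts with genes changed in LN CD103+ only, a simpler setting than these data, and no result here rests on it.

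The receptors and lists were chosen with earlier results of these data known. All 9 receptors are named, with up to 4 called genes of largest change per list and comparison, the 3 genes most like each receptor (for Csf1r and Csf3r, 1 of them is not reported here) and genes that check the labels. The other list genes named, and the marker genes shown from their lists, were picked after their values were seen.

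Replicate letters were checked for pairing by the correlation of same-letter deviations from group means. All 3 letters passed 0.1 between LP CD11b+ and LP CD103+ and between LP CD103+ and LP DP, so same-letter libraries deviated alike there. Libraries of different letters were not correlated, and what the letters mark is not stated. Between LP CD11b+ and LP DP, which share these letters, the values were 0.212, 0.0750 and 0.250. The reported tests hold no block, and a replicate block was run as an alternative. It changed no receptor call in the first 2 comparisons and ended that of Csf3r between DP and CD11b+ DCs of LP (edgeR adjusted p = 0.0104). Alternatives were DESeq2 size factors, total counts, other filters, an adjusted p under 0.05, DESeq2 1.42.0, only the libraries compared, the replicate block and each library left out. Leaving out both LN libraries with Xist and Ddx3y was added after seeing the data.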

Additional observations from a re-analysis of the deposited data

Results flagged for a closer look

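For 6 receptors the effect of tissue differed between the DC subsets in the F test (edgeR, adjusted over all genes). The adjusted p was 0.000334 for Flt3, with log2 fold changes of LN over LP of 0.32, 0.73 and 1.01 in CD11b+, CD103+ and DP DCs. It was 7.34e-09 for Csf2rb (log2 fold changes of -0.30, 2.97 and 1.97 in CD11b+, CD103+ and DP DCs) and 6.37e-07 for Csf2rb2 (1.97, 5.08 and 5.28). It was 8.84e-08 for Kit, with log2 fold changes of 1.16, -1.84 and -0.60, the 1 receptor called in opposite directions. It was 7.9e-05 for Ltbr (-1.05, -0.45 and -1.28) and 0.00231 for Il3ra (-0.15, 1.16 and 1.03). Among all genes 31.5% passed the same test.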

How the results depend on the processing

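The numbers of receptors called stayed within 1.5 times of the reported ones under every alternative run. Of the alternatives for single receptors, 2270 left the direction and the call as reported, 35 ended a call, 12 made one and 13 turned the sign. The signs that turned belonged to differences that were not called. With total counts they were Csf2ra in CD103+ against CD11b+ DCs of LP (-0.0328), Csf2rb in DP against CD11b+ DCs of LP (-0.0290) and Ltbr in CD103+ against CD11b+ DCs of LN (-0.36). With each library left out in turn, the ranges that crossed 0 were -0.0655 to 0.11 for that difference of Csf2ra, -0.0700 to 0.21 for that of Csf2rb and -0.00645 to 0.13 for that of Ltbr, -0.21 to 0.40 for Csf2rb2 in DP against CD103+ DCs of LP, and -0.42 to 1.25 for Csf3r in LN against LP CD103+ DCs, where 1 library had no count. Total counts moved the median log2 fold change of all genes in LN CD103+ against CD11b+ DCs from -0.13 to -0.56 and in DP against CD11b+ DCs from -0.08 to -0.44. The receptors called without both LN libraries that held Xist and Ddx3y numbered 5, 4 and 5 in the tissue comparisons of CD11b+, CD103+ and DP DCs. Csf1r was added there in CD11b+ DCs (-1.02) and Flt3 was lost in DP DCs (0.93). The Csf3r calls between DP and CD11b+ DCs were lost in both tissues.

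With the replicate block 2 receptors were called between DP and CD11b+ DCs of LP, since Csf3r was lost (adjusted p = 0.0104), and 7 passed the F test, since Csf2ra was added (0.00256). Correlations of same-letter deviations were 0.0750 to 0.250 within LP, 0.0152 to 0.129 within LN and -0.101 to 0.0731 between tissues. The block changed no other receptor call. Depth limits Csf3r in CD103+ DCs, at 18 counts or fewer in each LN CD103+ library.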
